A study of Rattus norvegicus with 16 samples.

Results

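The 10 genes described here encode receptors that recognize dying cells and myelin debris, and the secreted or cytoplasmic proteins that couple recognition to uptake. They are the TAM receptor tyrosine kinases Mertk, Axl and Tyro3, their ligands Gas6 and Pros1, the bridging protein Mfge8, the receptor Megf10, the engulfment adaptor Gulp1, the scavenger receptor Cd36 and the endocytic receptor Lrp1. They were chosen by name and role, with no threshold on their values but with earlier results of these data known, and were 10 of the 31038 genes in the deposited tables.

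Uptake of a dying cell starts when phosphatidylserine turns to the outer face of its membrane. Gas6, protein S (the product of Pros1) and Mfge8 bind this lipid and present it to receptors on the engulfing cell, the vitamin K-dependent pair to TAM receptors and Mfge8 to integrins. Megf10 and Lrp1 belong to receptor families that signal through the adaptor Gulp1, and Cd36 binds oxidized lipids and apoptotic cells. In the injured nerve, myelin debris distal to a lesion is cleared by Schwann cells and by macrophages.

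RNA-seq libraries were made from rat sciatic nerve, 16 in all, in 8 groups of 2. Schwann cells were acutely purified by immunopanning, in which CD45-positive and Thy1-positive cells were depleted and O4-positive cells were kept. Whole nerve RNA was extracted from tissue that had not been dissociated. Each tissue was sampled uncrushed and on days 3, 5 and 7 post-crush, from the segment distal to the crush or the matching segment of an uninjured nerve. All animals carried the age label postnatal day 18, the day of surgery, and at least 10 nerves were pooled for each sample, so a library was a pool and no value belonged to one animal. No sham operation was among the groups, and 3 to 7 days of further age cannot be told apart from the days after crush. In these 16 libraries, dissociation and panning cannot be told apart from cell type when Schwann cells are set against whole nerve, and dissociated nerve without panning was not analysed here.

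Between 12334355 and 27562637 reads were assigned to genes in each Schwann cell library and between 10555067 and 20203912 in each whole nerve library. The Schwann cell markers Sox10, S100b and Erbb3 were present in every library. In the purified cells the summed level of 12 macrophage markers lay between 9.16 and 81.1 FPKM, the sum of 6 endothelial markers was at most 4.16 FPKM and that of 5 adipocyte markers at most 0.17 FPKM. The fibroblast marker sum was 244 to 581 FPKM in purified cells and 4128 to 6378 FPKM in whole nerve, although its member Col1a2 was listed at 0 in 4 of 8 whole nerve libraries, so that sum was read with care. In whole nerve the macrophage sum rose from 528 to 553 FPKM uncrushed to 3186 to 3229 FPKM at day 3, and lay between 1626 and 1780 FPKM at days 5 and 7. FPKM, a fragment count scaled to transcript length and library size, is the authors' unit for a level, and it was used wherever genes were compared with each other. Fold changes came from edgeR on the counts, which rescales each library against the others. In Schwann cells the 2 scales gave close ratios (median gap -0.05 to 0.04 on the log2 scale against uncrushed). In whole nerve after crush, FPKM ratios ran 0.41 higher (1.33-fold) than edgeR's for the median gene at each day, so a whole nerve gene with level FPKM was lower by edgeR. Changes were called at an adjusted p under 0.05 (edgeR, quasi-likelihood F test, Benjamini-Hochberg over all genes tested), and each ± beside a fold change is its standard error.

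Of the 10 genes, 9 passed the filter on low counts in Schwann cells, and Mfge8 did not. Against uncrushed cells, 2 of 9 were called higher and 4 of 9 lower at day 3, when 26.9% of the 14961 genes tested were called higher and 25.7% lower. At day 5 the counts were again 2 higher and 4 lower, beside 29.0% and 25.6% of all genes. At day 7 they were 2 and 4 beside 25.0% and 21.9%. Mertk and Axl were the genes called higher at each of these days, and Pros1 and Gulp1 were called lower at each. The share called lower was above that of all genes and the share called higher was near or below it. From day 3 to day 7, 2 of 9 were called higher and 2 lower (10.2% and 10.7% of all genes).

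All 10 genes were tested in whole nerve. At day 3, 6 were called higher and 3 lower, where 23.1% of the 15831 genes tested were called higher and 22.5% lower. At day 5, 5 were higher and 2 lower (18.9% and 19.5% of all genes), and at day 7, 4 were higher and 1 lower (15.4% and 15.9%). From day 3 to day 7, 3 were higher and 2 lower (9.85% and 11.4% of all genes). The share called higher in whole nerve was above that of all genes at each day after crush. In these bulk samples, more cells of a type and more RNA per cell cannot be told apart.

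**Figure D1:**
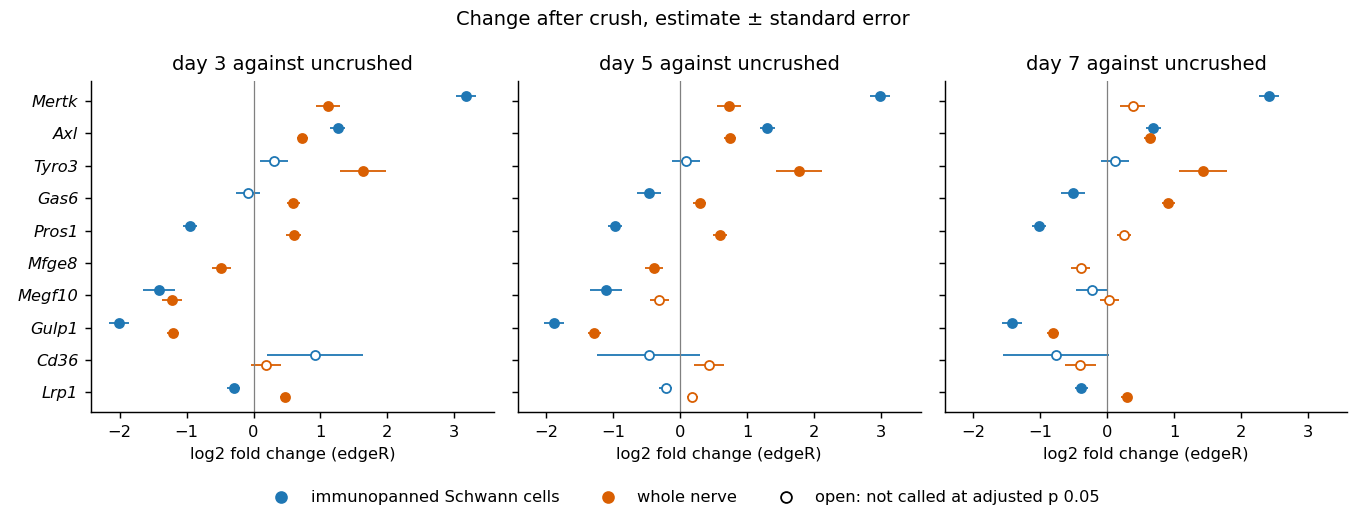
Log2 fold change (horizontal axis, edgeR estimate ± standard error) of each gene at 3, 5 and 7 days after crush against uncrushed, in Schwann cells (blue) and whole nerve (orange), 2 libraries per group. Filled points were called at an adjusted p of 0.05 and open points were not. Mertk lies farthest to the right in Schwann cells at each day, at 3.17 on day 3, and Gulp1 lies farthest to the left at each day. Mfge8 has no Schwann cell point because it was not tested there.

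Mertk, the TAM receptor best known for clearance of dying cells by macrophages and retinal epithelium, had the largest change of the 10 in Schwann cells. Its level was 4.83 and 4.20 FPKM in the 2 uncrushed Schwann cell libraries, 38.3 and 40.1 at day 3, 33.0 and 39.9 at day 5, then 22.1 and 27.6 at day 7. Every library after crush lay above both uncrushed libraries, and the day 7 libraries lay below those of days 3 and 5. By edgeR Mertk was 9.0-fold higher at day 3 (log2 3.17 ± 0.15, adjusted p = 1.96e-07), 7.93-fold at day 5 (log2 2.99 ± 0.15, adjusted p = 3.79e-07) and 5.35-fold at day 7 (log2 2.42 ± 0.15, adjusted p = 1.79e-06). From day 3 to day 7 it fell by 0.75 ± 0.13 on the log2 scale (adjusted p = 0.00308). One Schwann cell library of day 3 (replicate 2) had the highest macrophage marker sum of the purified cells, 81.1 FPKM against 14.0 in replicate 1. Mertk was 40.1 and 38.3 FPKM in those libraries, and without replicate 2 its day 3 change was 3.13 ± 0.18 (adjusted p = 3.14e-06).

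In whole nerve Mertk was 5.62 and 6.01 FPKM uncrushed, 16.9 and 16.5 at day 3, 12.04 and 13.5 at day 5, then 7.83 and 12.3 at day 7. All libraries after crush lay above the uncrushed ones, with the highest values at day 3. The log2 change was 1.12 ± 0.18 at day 3 (adjusted p = 5.37e-04) and 0.73 ± 0.18 at day 5 (adjusted p = 0.00904). At day 7 it was 0.38 ± 0.18 and did not pass (adjusted p = 0.144). The day 5 call was lost without uncrushed replicate 1 (adjusted p = 0.0510) or day 5 replicate 2 (adjusted p = 0.0596), and without day 7 replicate 1 the day 7 change was 0.69 and passed (adjusted p = 0.00588). From day 3 to day 7 Mertk fell by 0.73 ± 0.17 on the log2 scale (adjusted p = 0.0128), a call lost without either day 3 library (adjusted p = 0.0766 and 0.0565) or day 7 replicate 1 (adjusted p = 0.0556). The macrophage marker sum of the whole nerve was also highest at day 3, and its part in these values was not tested.

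Axl, a TAM receptor for which Gas6 is the ligand, was the most abundant TAM receptor in every library. In Schwann cells it was 37.8 and 31.0 FPKM uncrushed, 83.0 and 76.1 at day 3, 88.3 and 84.1 at day 5, then 60.4 and 54.0 at day 7. The groups did not overlap, and day 5 stood highest, though days 3 and 5 were close and were not tested against each other. The log2 change was 1.26 ± 0.11 at day 3 (adjusted p = 1.20e-05), 1.299 ± 0.11 at day 5 (adjusted p = 1.10e-05) and 0.69 ± 0.11 at day 7 (adjusted p = 8.26e-04). From day 3 to day 7 it fell by 0.57 ± 0.11 on the log2 scale (adjusted p = 0.00564), and this call was lost without day 3 replicate 1 (adjusted p = 0.0575). In whole nerve Axl was 22.8 and 22.9 FPKM uncrushed and between 46.6 and 53.2 FPKM in all 6 libraries after crush. Its log2 change there was 0.73 ± 0.09 at day 3, 0.74 ± 0.09 at day 5 and 0.64 ± 0.09 at day 7 (adjusted p = 6.67e-05, 7.88e-05 and 2.91e-04). No change of Axl passed in whole nerve between days 3 and 7 (log2 difference -0.09 ± 0.08, 95% interval -0.27 to 0.10, adjusted p = 0.506).

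Tyro3, the TAM receptor best known from neurons, was the least abundant of these receptors. In Schwann cells it lay between 1.41 and 2.11 FPKM in all 8 libraries, and its groups overlapped. Its log2 change at day 3 was 0.31 ± 0.20 (95% interval -0.15 to 0.76, adjusted p = 0.230), and at days 5 and 7 it was 0.08 and 0.11 (adjusted p = 0.752 and 0.676). In whole nerve it was 0.24 and 0.59 FPKM uncrushed, resting on 13 and 22 reads, and 1.39 to 1.88 FPKM in the libraries after crush. The log2 change was 1.63 ± 0.35 at day 3, 1.77 ± 0.35 at day 5 and 1.43 ± 0.36 at day 7 (adjusted p = 0.00332, 0.00267 and 0.0119). These values rested on the 2 uncrushed libraries. Without replicate 1 they were 1.05, 1.19 and 0.84, the last of which did not pass (adjusted p = 0.0825), and without replicate 2 they were 2.37, 2.51 and 2.17. Uncrushed replicate 2 had a skeletal muscle marker sum of 585 FPKM, against 23.9 FPKM in replicate 1, and the part of this in the result was not tested.

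**Figure D2:**
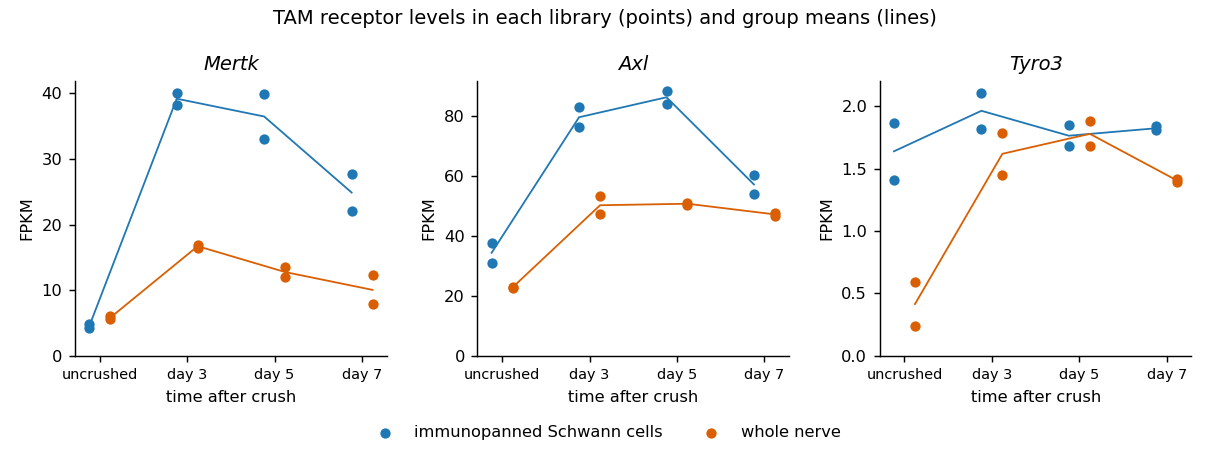
FPKM of Mertk, Axl and Tyro3 (vertical axes, each from 0) in each library (points) of Schwann cells (blue) and whole nerve (orange), uncrushed and at 3, 5 and 7 days after crush, with lines through the means of 2 libraries. Mertk and Axl stand above uncrushed in every library after crush in both tissues. Tyro3 overlaps between times in Schwann cells and is lowest in uncrushed whole nerve, at 0.24 and 0.59 FPKM. In whole nerve, FPKM ratios to uncrushed ran 1.33-fold above edgeR's for the median gene.

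The 3 receptors changed their proportions within Schwann cells. Of their summed FPKM, Axl held 84.9% and 84.7% in the uncrushed libraries and 64.5% to 71.7% after crush. The Mertk share was 10.9% and 11.5% uncrushed and 26.2% to 33.9% after crush, with no overlap. Tyro3 went from 4.21% and 3.85% to at most 2.18%. Their summed level was 44.5 and 36.6 FPKM uncrushed, 118 to 126 FPKM at days 3 and 5, and 84.3 and 83.4 FPKM at day 7. In whole nerve the Mertk share was 19.6% and 20.4% uncrushed, 25.8% and 23.0% at day 3 and 14.0% to 20.4% later, so day 3 stood above the rest. These shares are per length and do not depend on how libraries were scaled to each other.

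**Figure D3:**
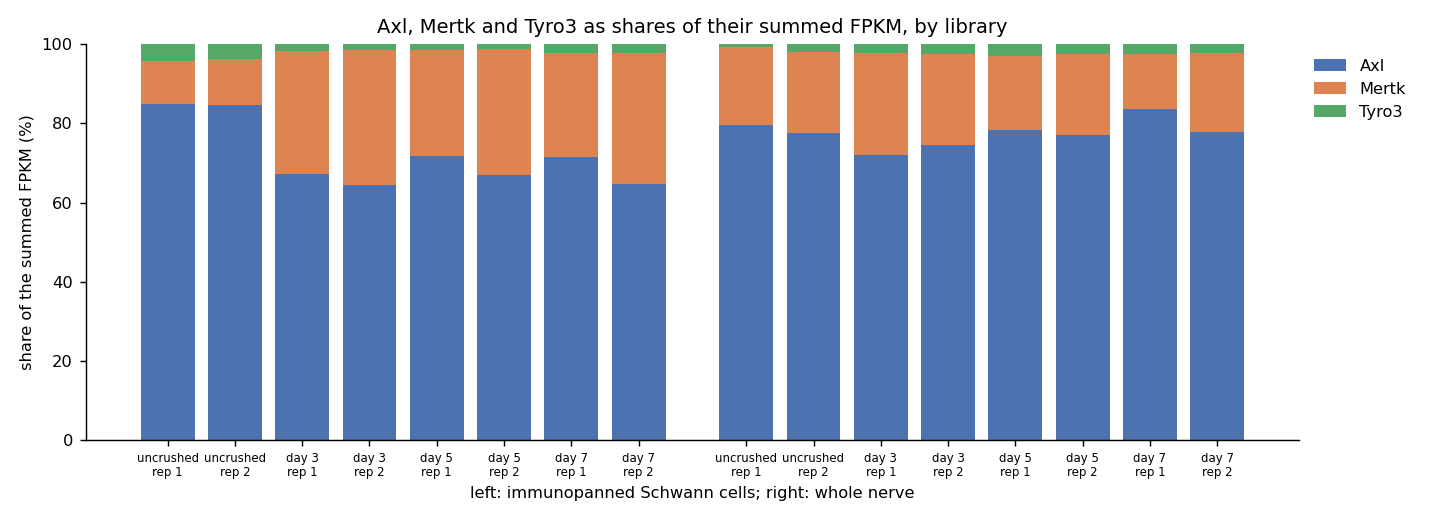
Stacked bars give Axl, Mertk and Tyro3 as percentages of their summed FPKM in each of 16 libraries, Schwann cells on the left and whole nerve on the right, in the order uncrushed, day 3, day 5 and day 7. In Schwann cells the Mertk share is 10.9% and 11.5% uncrushed and 26.2% to 33.9% in all 6 libraries after crush. In whole nerve it runs from 14.0% to 25.8%.

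The promoters of Mertk and Axl are shown because these were the only genes of the set called higher in Schwann cells at every day. Promoter sequences were found for 9 of the 10 genes in a RefSeq table of build GRCr8, which is not the Rnor_6.0 build of the expression files. The 250 bases before the annotated start are printed 5′ to 3′ on the gene's strand, with each GC box (GGGCGG or its complement) in capitals. Mertk lies at chr3:136392324-136392573 on the plus strand and Axl at chr1:90424010-90424259 on the minus strand.

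Mertk: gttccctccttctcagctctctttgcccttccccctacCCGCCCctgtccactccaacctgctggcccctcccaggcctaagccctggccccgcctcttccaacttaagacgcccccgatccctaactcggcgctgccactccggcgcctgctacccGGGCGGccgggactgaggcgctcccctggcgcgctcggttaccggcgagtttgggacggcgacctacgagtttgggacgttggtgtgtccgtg

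Axl: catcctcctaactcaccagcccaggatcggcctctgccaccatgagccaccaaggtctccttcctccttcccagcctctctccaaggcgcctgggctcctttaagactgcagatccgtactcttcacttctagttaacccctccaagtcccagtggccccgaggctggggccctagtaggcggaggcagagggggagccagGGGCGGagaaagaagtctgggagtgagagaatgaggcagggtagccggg

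The Mertk window held 2 GC boxes, starting 212 and 93 bases before the start, and the Axl window held 1, at 49 bases. A GC box was present in the same window of 7 of the 9 genes and of 32.4% of 27457 promoters in the table. The AP-1 motif TGANTCA, searched because AP-1 factors are part of the Schwann cell injury response, had no match in either window and 1 in that of Tyro3, and was present in 6.36% of all promoters. The E-box CANNTG matched in Gulp1 and Cd36 and in 65.2% of all promoters. Both strands were searched, and a match or its absence describes these letters only.

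Gas6, the ligand of all TAM receptors, was a whole nerve transcript far more than one of purified Schwann cells. In Schwann cells it was 4.51 and 4.02 FPKM uncrushed, 3.75 and 4.01 at day 3, 2.90 and 3.38 at day 5, then 2.80 and 3.43 at day 7. In whole nerve it was 25.5 and 27.8 FPKM uncrushed, 49.6 and 57.5 at day 3, 42.8 and 43.6 at day 5, then 69.3 and 64.2 at day 7. The tissues did not overlap at any time. In Schwann cells its log2 change was -0.08 ± 0.17 at day 3 (adjusted p = 0.712), -0.47 ± 0.18 at day 5 (adjusted p = 0.0476) and -0.50 ± 0.18 at day 7 (adjusted p = 0.0432). The day 5 call was lost without any 1 of the 4 libraries compared (adjusted p = 0.0639 to 0.220). The day 7 call was lost without either uncrushed library (adjusted p = 0.149 and 0.0605) or day 7 replicate 1 (adjusted p = 0.237). Both calls were also lost with DESeq2, without the filter on low counts and with only the groups compared. In whole nerve Gas6 rose by 0.60 ± 0.10 on the log2 scale at day 3 (adjusted p = 6.67e-04) and by 0.92 ± 0.10 at day 7 (adjusted p = 6.13e-05). The day 5 change of 0.29 ± 0.10 passed (adjusted p = 0.0409) and was lost without any 1 of its 4 libraries (adjusted p = 0.0545 to 0.185). The day 7 level was above day 3 by 0.32 ± 0.10 on the log2 scale (adjusted p = 0.0391), a call lost without either day 3 library (adjusted p = 0.279 and 0.0633) or day 7 replicate 1 (adjusted p = 0.159).

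Pros1, which encodes protein S, a ligand of Mertk and Tyro3 and an anticoagulant, moved in opposite directions in the purified cells and in the nerve. Schwann cells had 35.9 and 31.6 FPKM uncrushed, 17.8 and 16.1 at day 3, 16.3 and 18.4 at day 5, then 18.2 and 16.04 at day 7. Both uncrushed libraries stood above all 6 libraries after crush, which overlapped each other. Whole nerve had 29.4 and 24.8 FPKM uncrushed, 52.8 and 55 at day 3, 55.4 and 54.9 at day 5, then 46.4 and 38.3 at day 7. Here both uncrushed libraries stood below all others. In Schwann cells Pros1 fell by 0.95 ± 0.11 on the log2 scale at day 3 (adjusted p = 6.05e-05), by 0.97 ± 0.11 at day 5 (adjusted p = 5.53e-05) and by 1.02 ± 0.11 at day 7 (adjusted p = 5.90e-05). In whole nerve it rose by 0.60 ± 0.11 at day 3 (adjusted p = 0.00111) and by 0.59 ± 0.11 at day 5 (adjusted p = 0.00154). At day 7 the whole nerve change was 0.25 ± 0.11 and did not pass (adjusted p = 0.108), though it passed without day 7 replicate 2 (0.37, adjusted p = 0.0335). Between days 3 and 7 whole nerve Pros1 fell by 0.35 ± 0.11 (adjusted p = 0.0394), a call lost without either day 3 library (adjusted p = 0.135 and 0.173) or day 7 replicate 2 (adjusted p = 0.193), or with upper quartile scaling.

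In purified Schwann cells, Gas6 was 0.126 to 0.249 times the level of Pros1 in FPKM. In whole nerve the ratio lay between 0.772 and 1.68, highest in both day 7 libraries (1.49 and 1.68). Protein S transcript was thus the more abundant TAM ligand transcript in all 8 Schwann cell libraries, and in whole nerve the order depended on the library.

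Mfge8, a milk fat globule protein that links phosphatidylserine to integrins, was near the limit of detection in purified cells. Its counts in the 8 Schwann cell libraries were 12 and 5 uncrushed, 5 and 17 at day 3, 11 and 4 at day 5, then 4 and 1 at day 7, or 0.04 to 0.47 FPKM. Tested without the filter, its change was -0.33 ± 0.86 at day 3, -0.59 ± 0.88 at day 5 and -1.95 ± 1.01 at day 7 (adjusted p = 0.817, 0.657 and 0.135), so none was detectable at this depth. In whole nerve it was 14.9 and 16.5 FPKM uncrushed and between 13.6 and 17.5 FPKM in every library after crush. Those FPKM values overlapped, while edgeR placed the gene 0.48 ± 0.14 lower on the log2 scale at day 3 (adjusted p = 0.0167) and 0.39 ± 0.14 lower at day 5 (adjusted p = 0.0464). At day 7 the change was -0.39 ± 0.14 (adjusted p = 0.0565), and it passed without day 7 replicate 1 (-0.56, adjusted p = 0.0232). The decrease was close in size to the 0.41 gap between the scales, and the mean FPKM was 15.7 uncrushed and 14.8 at day 3. By TPM the day 5 mean was the higher one, 25.8 against 24.8 uncrushed. The day 3 call was lost without uncrushed replicate 2 (adjusted p = 0.0849) or day 3 replicate 2 (adjusted p = 0.122), and the day 5 call without any 1 of its 4 libraries (adjusted p = 0.0715 to 0.188). Both were also lost with all 16 libraries in 1 fit (adjusted p = 0.112 and 0.270), and that of day 5 with DESeq2 or upper quartile scaling (adjusted p = 0.0936 and 0.0554).

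**Figure D4:**
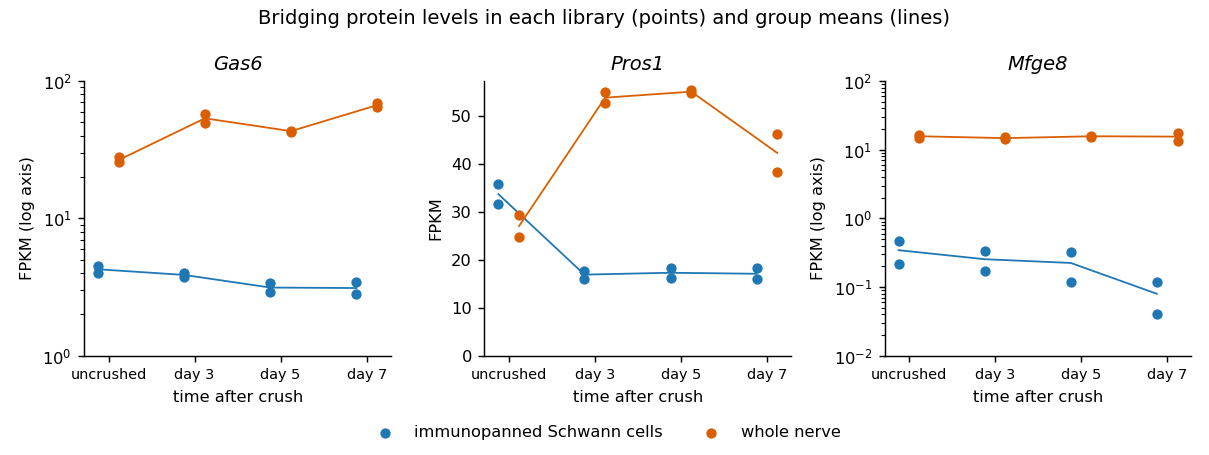
FPKM of Gas6, Pros1 and Mfge8 in each library (points) of Schwann cells (blue) and whole nerve (orange) by time after crush, with lines through the means of 2 libraries. The vertical axes of Gas6 and Mfge8 are logarithmic and that of Pros1 starts at 0. Gas6 and Mfge8 separate the tissues at every time, and Pros1 falls from 35.9 and 31.6 FPKM to 16.04 to 18.4 FPKM in Schwann cells while it stands higher after crush in whole nerve.

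Gulp1, the cytoplasmic adaptor that docks on Megf10 and Lrp1 tails, was the most abundant of the 10 transcripts in uncrushed Schwann cells. Its level there was 125 and 87.9 FPKM. It was 25.6 and 24.8 FPKM at day 3, 31.2 and 27.7 at day 5, then 41.0 and 40.8 at day 7, so the groups did not overlap and the lowest values were those of day 3. Gulp1 fell by 2.01 ± 0.15 on the log2 scale at day 3 (adjusted p = 3.24e-06), by 1.88 ± 0.15 at day 5 (adjusted p = 5.53e-06) and by 1.42 ± 0.14 at day 7 (adjusted p = 4.41e-05). The day 7 level was above day 3 by 0.59 ± 0.14 (adjusted p = 0.0177), a call that no 3 of the 4 libraries compared kept (adjusted p = 0.0690 to 0.106). In whole nerve Gulp1 was 50.8 and 55.1 FPKM uncrushed, 28.7 and 30.2 at day 3, 27.7 and 27.8 at day 5, then 37.3 and 40.4 at day 7. It fell by 1.21 ± 0.09 at day 3, by 1.29 ± 0.09 at day 5 and by 0.81 ± 0.09 at day 7 (adjusted p = 3.32e-06, 2.93e-06 and 1.00e-04). Its day 7 level in whole nerve was above day 3 by 0.40 ± 0.09 (adjusted p = 0.0135), lost without either day 3 library (adjusted p = 0.104 and 0.0735) or day 7 replicate 2 (adjusted p = 0.0641).

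Megf10, a receptor of glial phagocytosis, was lower at day 3 and higher again at day 7 in both tissues. In Schwann cells it was 19.3 and 34.7 FPKM uncrushed, a wide spread, then 10.9 and 8.72 at day 3, 13.2 and 12.3 at day 5, then 24.5 and 23.1 at day 7. The uncrushed libraries lay above those of days 3 and 5 and on both sides of those of day 7. Megf10 fell by 1.42 ± 0.24 on the log2 scale at day 3 (adjusted p = 7.98e-04) and by 1.11 ± 0.24 at day 5 (adjusted p = 0.00318). Without uncrushed replicate 2 these values were -0.94 and -0.62, and both passed (adjusted p = 3.95e-04 and 0.00440). At day 7 the difference from uncrushed was -0.23 ± 0.23 (95% interval -0.75 to 0.29, adjusted p = 0.447). That day 7 value depended on the uncrushed libraries, at -0.60 without replicate 1 (adjusted p = 0.00602) and 0.26 without replicate 2 (adjusted p = 0.160). From day 3 to day 7 Megf10 rose by 1.19 ± 0.24 (adjusted p = 0.00657), a call lost without day 3 replicate 2 (1.05, adjusted p = 0.0626).

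Whole nerve Megf10 was 8.26 and 11.7 FPKM uncrushed, 5.31 and 5.99 at day 3, 9.90 and 11.2 at day 5, then 13.0 and 14.0 at day 7. Day 3 stood below the other groups. It fell by 1.22 ± 0.15 at day 3 (adjusted p = 8.68e-05) and rose by 1.26 ± 0.15 from day 3 to day 7 (adjusted p = 2.70e-04). At day 5 the change was -0.31 ± 0.15 (adjusted p = 0.120), and without uncrushed replicate 1 it was -0.54 and passed (adjusted p = 0.00778). The day 7 difference from uncrushed was 0.03 ± 0.15 (95% interval -0.29 to 0.36, adjusted p = 0.890).

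Lrp1, the large endocytic receptor for lipoproteins and myelin debris, had small changes, which in the counts were of opposite sign in the 2 tissues. Schwann cells had 12.3 and 12.2 FPKM uncrushed, 9.30 and 9.95 at day 3, 10.9 and 10.4 at day 5, then 9.26 and 9.96 at day 7. Whole nerve had 11.1 and 11.5 FPKM uncrushed, 20.5 and 21.2 at day 3, 16.9 and 16.9 at day 5, then 17.6 and 19.4 at day 7. After crush the Schwann cell libraries were thus lower and the whole nerve libraries higher than their uncrushed groups in FPKM. Lrp1 fell by 0.29 ± 0.10 on the log2 scale in Schwann cells at day 3 (adjusted p = 0.0287) and by 0.39 ± 0.10 at day 7 (adjusted p = 0.00916). At day 5 the change was -0.22 ± 0.10 (adjusted p = 0.0800). The day 5 change passed under other scalings, a stricter filter or all 16 libraries in 1 fit (adjusted p = 0.0258 to 0.0357). The day 3 call was lost without either day 3 library (adjusted p = 0.147 and 0.0669) or with only the groups compared (adjusted p = 0.0543), and the day 7 call without day 7 replicate 1 (adjusted p = 0.0767). In whole nerve Lrp1 rose by 0.47 ± 0.08 at day 3 (adjusted p = 8.98e-04) and by 0.29 ± 0.08 at day 7 (adjusted p = 0.0192), the latter lost without uncrushed replicate 1 (adjusted p = 0.0940) or day 7 replicate 2 (adjusted p = 0.0797), or with only the groups compared. At day 5 it was 0.18 ± 0.08 (adjusted p = 0.113). The fall in Schwann cells was not seen in the authors' Cufflinks values. The log2 ratio of Lrp1 to uncrushed there was 0.04, 0.37 and 0.10 at days 3, 5 and 7 (pseudocount 1, no test). With no pseudocount, these ratios of Lrp1 ran above those of the counts by 0.34, 0.67 and 0.51. The Cufflinks ratios of Mertk, Axl, Pros1 and Gulp1 also ran above those of the counts at each day.

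Cd36, the scavenger receptor and fatty acid translocase, was nearly absent from purified Schwann cells. Its level there was 0.91 and 0.30 FPKM uncrushed, 0.40 and 1.73 at day 3, 0.54 and 0.33 at day 5, then 0.50 and 0.20 at day 7. The 1.73 FPKM came from day 3 replicate 2, the library with the highest macrophage marker sum of the purified cells. None of its changes in Schwann cells passed with all libraries (adjusted p = 0.305 to 0.625 against uncrushed). The day 3 estimate turned from 0.92 ± 0.72 to -0.54 ± 0.82 without that library. From day 3 to day 7 the estimate was -1.68 (adjusted p = 0.144), and without day 3 replicate 1 it was -2.33. In whole nerve it was 117 and 65.5 FPKM uncrushed, 149 and 126 at day 3, 187 and 138 at day 5, then 91.5 and 91.7 at day 7. The uncrushed pair spanned the day 7 values, and the log2 changes of 0.19 ± 0.23, 0.43 ± 0.23 and -0.40 ± 0.23 did not pass (adjusted p = 0.533, 0.166 and 0.215). These calls depended on the uncrushed libraries and on the filter. Without uncrushed replicate 1 the changes at days 3 and 5 were 0.67 and 0.91 and passed (adjusted p = 0.0143 and 0.00379), and without replicate 2 the day 7 change was -0.75 and passed (adjusted p = 0.00878). With all libraries and no filter on low counts, the changes of 0.45 at day 5 and -0.38 at day 7 passed (adjusted p = 1.10e-04 and 0.00197). In the uncrushed nerve the sum of 5 adipocyte markers ran from 227 to 445 FPKM, at day 3 from 230 to 301, at day 5 from 513 to 736 and at day 7 from 405 to 422, and its part in the Cd36 values was not tested. The files also list a related record, Cd36l1, and Cd36 counts were not whole in 11 libraries, so reads may be split between copies and these values are uncertain.

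**Figure D5:**
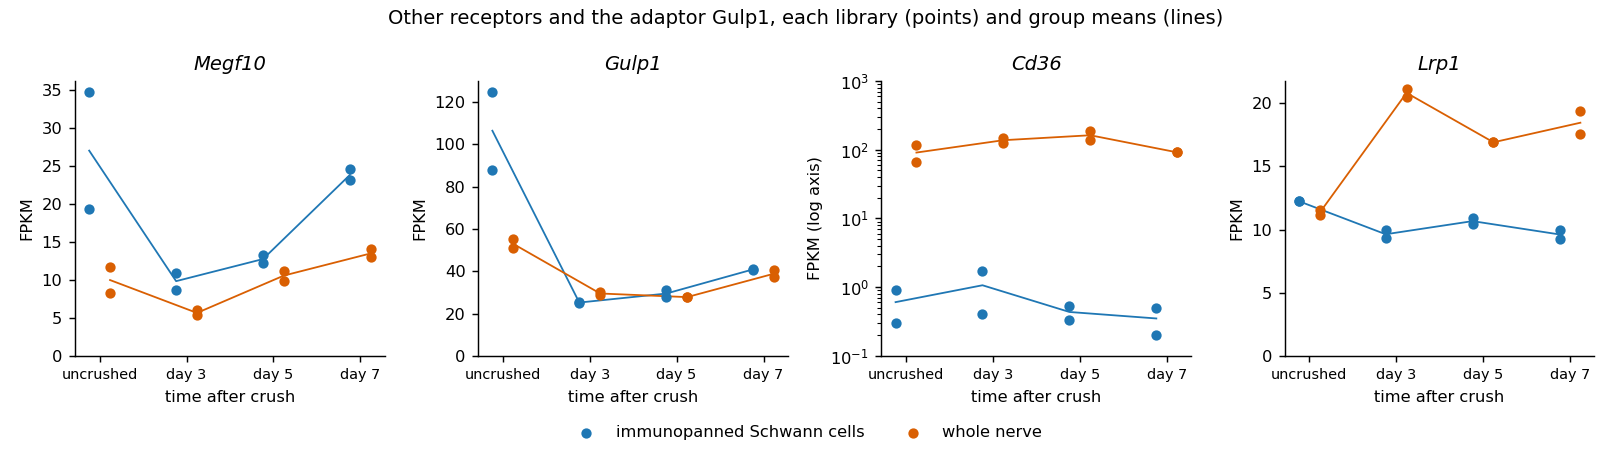
FPKM of Megf10, Gulp1, Cd36 and Lrp1 in each library (points) of Schwann cells (blue) and whole nerve (orange) by time after crush, with lines through the means of 2 libraries. The Cd36 axis is logarithmic and the others start at 0. Gulp1 falls from 125 and 87.9 FPKM to 25.6 and 24.8 FPKM at day 3 in Schwann cells, Megf10 dips at day 3 in both tissues, and Cd36 stays at or below 1.73 FPKM in Schwann cells.

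Set side by side at the same time, 4 of the 10 genes were called higher in the purified cells when uncrushed and 4 lower (29.1% and 35.3% of 16829 genes). At day 3, 3 were higher and 5 lower (24.5% and 32.8% of all genes). The counts were 2 and 5 at day 5 (23.2% and 28.4%) and 2 and 5 at day 7 (22.4% and 28.7%). Gas6, Mfge8 and Cd36 were lower in Schwann cells at each of the 4 times, and Mertk changed sides in the counts. Uncrushed Schwann cells had less Mertk than whole nerve (log2 -0.67 ± 0.19, adjusted p = 0.00632), and at days 3, 5 and 7 they had more (1.28 ± 0.16, 1.46 ± 0.16 and 1.25 ± 0.17, adjusted p = 9.39e-06, 3.74e-06 and 2.24e-05). The uncrushed direction rested on the scale, since mean TPM, which scales each library to one total, was 10.1 in Schwann cells and 9.16 in whole nerve, and FPKM ratios ran 0.31 above edgeR's for the median gene of this comparison. Gas6 was lower in Schwann cells by 2.95 ± 0.12 on the log2 scale when uncrushed and by 4.49 ± 0.13 at day 7 (adjusted p = 1.40e-10 and 9.13e-12). Cd36 was lower by 7.51 ± 0.50 and Mfge8 by 5.78 ± 0.31 in uncrushed Schwann cells (adjusted p = 1.19e-08 and 1.35e-09). Mfge8 entered this fit through its whole nerve counts, since it did not pass the filter in Schwann cells (0.22 to 0.47 FPKM uncrushed). The size of its difference is therefore uncertain, also where Mfge8 is counted among the lower genes above. No difference in Pros1 passed when uncrushed (0.01 ± 0.11, 95% interval -0.23 to 0.24, adjusted p = 0.953). That result rested on the scale too, since mean TPM of uncrushed Pros1 was 75.5 in Schwann cells and 42.7 in whole nerve. At day 3 Pros1 was 1.64 ± 0.11 lower in Schwann cells (adjusted p = 1.58e-08).

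Gulp1 and Megf10 also stood apart in the uncrushed tissues. Gulp1 was 0.73 ± 0.13 higher on the log2 scale in uncrushed Schwann cells (adjusted p = 1.89e-04), or 0.45 without Schwann cell replicate 1 (adjusted p = 0.00198), and at days 5 and 7 the difference was 0.00 ± 0.13 (95% interval -0.27 to 0.28 and -0.28 to 0.27). Megf10 was higher in Schwann cells when uncrushed (1.15 ± 0.22, adjusted p = 4.10e-04, or 0.65 without Schwann cell replicate 2), at day 3 (0.85 ± 0.22, adjusted p = 0.00466) and at day 7 (0.77 ± 0.22, adjusted p = 0.00862), and the day 7 call was lost without whole nerve day 7 replicate 1 (adjusted p = 0.0559). Axl was higher in Schwann cells at day 3 (0.71 ± 0.10, adjusted p = 2.34e-05) and day 5 (0.71 ± 0.10, adjusted p = 2.91e-05). The uncrushed Axl difference of 0.28 ± 0.10 (adjusted p = 0.0247) was lost without Schwann cell replicate 1 (adjusted p = 0.238) or either whole nerve library (adjusted p = 0.0925 and 0.0794), without the filter on low counts, or with only the groups compared. Lrp1 was lower in Schwann cells at each day after crush, by 1.06 ± 0.09 at day 3 (adjusted p = 9.33e-08). Tyro3 was higher in uncrushed Schwann cells (1.76 ± 0.32, adjusted p = 2.42e-04; 1.16 without whole nerve replicate 1 and 2.49 without replicate 2), and no difference passed after crush.

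The difference between the injury effects of the 2 tissues was tested directly, as a contrast of contrasts. The difference is signed, the log2 change in Schwann cells minus that in whole nerve, so a negative value can be a deeper fall in Schwann cells. At day 3, 2 genes had a positive difference and 5 a negative one (12.3% and 13.7% of 16829 genes). At day 5 the counts were 2 and 6 (12.6% and 14.9%), and at day 7 they were 1 and 5 (11.6% and 14.4%). The positive genes were Mertk at each day and Axl at days 3 and 5. The Axl difference was 0.43 on both days, and these calls were lost in most fits without 1 library. Its sign was kept in FPKM but was the opposite one in mean TPM, so the Axl part of the positive counts is uncertain. The counts of negative differences were above the share of all genes at each day. The Mertk difference was 1.95 ± 0.25 at day 3, 2.13 ± 0.25 at day 5 and 1.92 ± 0.25 at day 7 (adjusted p = 4.77e-05, 2.34e-05 and 7.08e-05). The Pros1 difference was -1.65 ± 0.15 at day 3 (adjusted p = 2.89e-06), that is, a fall in Schwann cells against a rise in the nerve. Lrp1 differed in the same sense in the counts (-0.87 ± 0.12 at day 3, adjusted p = 1.02e-04). Gulp1 fell in both tissues, more in Schwann cells (difference -0.91 at day 3).

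The wider engulfment pathway was looked up in 4 lists. Of 25 tested genes in the list of other engulfment receptors, 4 were called higher and 10 lower in Schwann cells at day 3, and in whole nerve 21 of 36 were higher and 6 lower, beside 26.9% and 25.7% of all genes in Schwann cells and 23.1% and 22.5% in whole nerve. Without day 3 replicate 2, the Schwann cell library with the highest macrophage marker sum, 1 of 26 was called higher and 9 lower, where 19.9% and 17.9% of all genes were called in that smaller fit. The median log2 change was -0.02 in Schwann cells and 0.98 in whole nerve, where the medians over all genes tested were 0.00 and 0.00. Adgrb1, a phosphatidylserine receptor, fell most in both, by 5.25 ± 0.29 and 4.36 ± 0.57 on the log2 scale (adjusted p = 5.08e-07 and 1.36e-04). The largest positive estimate in Schwann cells, 2.95 ± 1.03 (adjusted p = 0.0352), was that of C5ar1, a complement receptor of myeloid cells, on 2 reads in each uncrushed library and 5 and 52 reads at day 3. The 52 reads came from replicate 2, and without that library the estimate was 1.08 ± 1.23 and did not pass (adjusted p = 0.516). Of the 9 macrophage markers tested in the same comparison, 2 were called higher, Ptprc (2.76 ± 0.83, adjusted p = 0.0186) and Lyz2 (2.13 ± 0.77, adjusted p = 0.0420). The share of all genes called higher there was 26.9%. Both markers had their highest Schwann cell level in day 3 replicate 2. In replicates 1 and 2, Ptprc was 0.18 and 1.29 FPKM at day 3 and 0.16 and 0.07 uncrushed. Lyz2 was 7.99 and 54.6 FPKM at day 3 and 11.9 and 3.24 uncrushed. The largest rise in whole nerve was that of Clec7a, a myeloid lectin, at 3.77 ± 0.18 (adjusted p = 1.01e-07). Whole nerve macrophage markers were highest at the same time, and the part of these markers in the whole nerve counts was not tested.

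Among other bridging, eat-me and stop signals, 14 of 23 tested genes were higher and 4 lower in Schwann cells at day 3, and 20 of 28 were higher and 1 lower in whole nerve, beside the same 26.9% and 25.7% of all genes in Schwann cells and 23.1% and 22.5% in whole nerve. Their medians were 0.76 and 0.91. Tub, which encodes a tubby family protein reported as a Mertk ligand, rose most in Schwann cells, from 0.08 ± 0.03 to 11.9 ± 0.87 FPKM (SD, n = 2), a log2 change of 7.27 ± 0.24 (adjusted p = 5.10e-08). Apoe, a lipoprotein that takes part in lipid clearance, fell most in Schwann cells, by 2.46 ± 0.18 on the log2 scale (adjusted p = 3.55e-06), from 200 ± 34.3 to 35.5 ± 1.87 FPKM. In whole nerve Apoe was 218 ± 10.8 FPKM uncrushed and 669 ± 29.9 FPKM at day 3. Cd24, an anti-phagocytic surface protein, had the largest rise in whole nerve (3.42 ± 0.15, adjusted p = 6.64e-08), and Vtn, the integrin ligand vitronectin, the largest fall (2.09 ± 0.20 lower, log2 -2.09, adjusted p = 1.44e-05).

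In the list of engulfment signaling and membrane remodeling, 19 of 37 tested genes were higher and 5 lower in Schwann cells at day 3, and 16 of 43 were higher and 5 lower in whole nerve, against the same background of 26.9% and 25.7% in Schwann cells and 23.1% and 22.5% in whole nerve. Without Schwann cell day 3 replicate 2, 14 of 39 were higher and 5 lower, beside 19.9% and 17.9% of all genes in that fit. Ucp2, a mitochondrial carrier linked to continued uptake of dying cells, rose most in Schwann cells (3.73 ± 0.16, adjusted p = 1.35e-07), from 20.6 ± 1.43 to 263 ± 21.8 FPKM. Socs3, an inhibitor of cytokine signaling, fell most there (log2 -3.14 ± 0.12, adjusted p = 6.43e-08). It was 161 ± 10.8 FPKM in uncrushed Schwann cells and 0.80 ± 0.17 FPKM in uncrushed whole nerve, a difference in which dissociation and cell type cannot be told apart with these libraries. Abca1, the cholesterol exporter, had the largest rise in whole nerve (3.44 ± 0.12, adjusted p = 1.46e-08) and was 31.2 ± 1.39 FPKM in uncrushed and 266 ± 11.1 FPKM in day 3 Schwann cells. Elmo1, which activates Rac during uptake, fell most in whole nerve (log2 -1.31 ± 0.11, adjusted p = 7.46e-06).

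TAM receptors are shed from the cell surface by the proteases Adam10 and Adam17, so 5 genes of shedding were looked up. In Schwann cells at day 3, Adam17 and Rhbdf2, a partner that brings Adam17 to the surface, were called lower (log2 -0.76 ± 0.10 and -0.61 ± 0.20, adjusted p = 1.53e-04 and 0.0243) and none higher, beside 25.7% and 26.9% of all genes. Without day 3 replicate 2 the count was 1 lower, beside 17.9%. In whole nerve Adam17 was higher (0.46 ± 0.09, adjusted p = 0.00147) and Adam10 lower (-0.54 ± 0.10, adjusted p = 0.00134), 1 of 5 in each direction beside 23.1% and 22.5%. The level of Adam17 in Schwann cells was 75.7 ± 3.51 FPKM before crush, then 43.1 ± 1.34, 72.3 ± 6.01 and 113 ± 9.64 FPKM on days 3, 5 and 7. All 5 genes were called higher in the purified cells at each of the 4 times, where 29.1%, 24.5%, 23.2% and 22.4% of all genes were called higher.

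Across the 16 libraries, the gene whose profile was most like Mertk's on log2 CPM was Clcn4 (Pearson r = 0.980), followed by Met (0.976), among 16829 genes. Axl was nearest to Tnc (0.960), Gas6 to C1s (0.995), Pros1 to B4galt6 (0.986) and Gulp1 to Tet2 (0.977). Mfge8 was nearest to Pdgfra (0.996), a fibroblast marker, and Cd36 to Fabp4 (0.997), a fatty acid binding protein of adipocytes. Lrp1 was nearest to Cfp (0.983), Megf10 to Rgmb (0.941) and Tyro3 to LOC102554194 (0.923). The points share tissue and time groups, so a high r follows wherever genes separate Schwann cells from whole nerve, and no p is given.

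A second table of the authors, from Cufflinks, lists 6 of the 10 genes (Mertk, Axl, Pros1, Megf10, Gulp1 and Lrp1) in Schwann cells. Mean Mertk there was 1.65 FPKM uncrushed and 19.3 FPKM at day 3, a log2 ratio of 2.94 with a pseudocount of 1. Directions at day 3 matched the counts for 5 of the 6 genes, at 1.57 for Axl, -0.57 for Pros1, -1.07 for Megf10 and -1.69 for Gulp1. Lrp1 went the other way, at 0.04 against -0.29. With no pseudocount, the Cufflinks ratio of the 5 genes other than Megf10 ran above that of the counts by 0.23 to 0.39 on the log2 scale at day 3, 0.67 to 0.69 at day 5 and 0.47 to 0.57 at day 7, a gap between the tables that these genes shared. Megf10 stood at 2.96 FPKM uncrushed in that table and 27.0 FPKM in the main one, the largest ratio between the tables among the 6 genes at that time, so its level depends on the counting.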

How the data were processed

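RNA-seq of rat sciatic nerve was analysed in 16 libraries, 2 for each of 4 time points of immunopanned Schwann cells and of whole nerve, made with the Ovation RNA-seq system V2. Per the labels, the authors aligned reads with STAR to Rnor_6.0 and deposited RSEM expected counts with FPKM and TPM for 31038 genes. For Schwann cells the authors also deposited FPKM from Cufflinks in a table of gene modules, which supplied 2 unnumbered columns per group. Library totals were 10555067 to 27562637. With 2 pooled samples per group, p-values measure only the spread between these libraries, and nothing states that they came from separate batches of animals.

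Expected counts were rounded and tested in edgeR 4.0.16 (R 4.3.3) with TMM scaling, filterByExpr, the quasi-likelihood F test and Benjamini-Hochberg adjustment over all genes tested, called at 0.05. Within-tissue contrasts used the 8 libraries of that tissue, and contrasts between tissues used all 16. Standard errors were derived from each fold change and its F statistic. The code was tested on simulated data. The filter left 14961 genes in Schwann cells, 15831 in whole nerve and 16829 over both.

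The 10 genes, the wider lists and the markers were chosen with earlier results of these data known. Named in the text were the 10 genes, the called genes of each wider list with the largest and smallest change at day 3, and the nearest profiles by Pearson correlation of log2 CPM with a prior count of 2. From the list of other marker sets, only those beside a result are given. Alternatives were DESeq2 1.42.0, other scalings and filters, a replicate block, leaving out each library, other choices of libraries, the Cufflinks values and TPM in place of FPKM. Tables of the authors' own comparisons were not used. RefSeq promoters (GRCr8) were searched on both strands with Python 3.11.15, and proteins were not used here.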

Additional observations from a re-analysis of the deposited data

Results flagged for a closer look

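The injury effect differed between Schwann cells and whole nerve in 21 tests of the difference itself (edgeR, all 16 libraries, adjusted p under 0.05), over 3 days and 8 of the 10 genes. Values are the log2 change in Schwann cells minus that in whole nerve. Mertk had the values 1.95, 2.13 and 1.92 at days 3, 5 and 7. Axl had 0.43 at day 3 and 0.43 at day 5, close in size to the 0.41 gap between FPKM and edgeR ratios in whole nerve. These calls were lost in 7 and 6 of the 8 fits without 1 library. The value was 0.32 on both days without uncrushed Schwann cell replicate 2. By mean TPM the log2 change of Axl was 1.01 in Schwann cells and 1.10 in whole nerve at day 3. At day 5 the TPM changes were 1.12 and 1.21, so the order in TPM was the opposite one at both days. By FPKM they were 1.21 and 1.14, then 1.33 and 1.15. Tyro3 had -1.43, -1.82 and -1.43, and the calls at days 3 and 7 were lost in 4 and 3 of the 8 fits without 1 library, with the smallest values, -0.82 and -0.86, without uncrushed whole nerve replicate 1 (adjusted p = 0.132 and 0.122). Gas6 had -0.78, -0.88 and -1.54 and Pros1 had -1.65, -1.69 and -1.38. Gulp1 had -0.91, -0.72 and -0.73 and Lrp1 had -0.87, -0.52 and -0.80. Without uncrushed Schwann cell replicate 1, Gulp1 was -0.45 at day 5 and -0.46 at day 7 and still passed (adjusted p = 0.0281 and 0.0269). Megf10 had -0.92 at day 5 alone, lost in 6 of the 8 fits without 1 library, with the smallest value of -0.42 without uncrushed Schwann cell replicate 2. Some fits without 1 library also gained calls. Megf10 was -0.67 at day 3 and -0.75 at day 7 without uncrushed Schwann cell replicate 1. Mfge8 was -2.05 at day 7 without uncrushed Schwann cell replicate 2. With only the groups compared, the calls of Tyro3 at days 3 and 7 and of Megf10 and Gulp1 at day 5 were lost, those of Axl were lost without the filter on low counts, and that of Megf10 with upper quartile scaling. The groups of 2 libraries were too small for a test of single outlying samples.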

How the results depend on the processing

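Of 146 pairs of gene and comparison, 99 were called, none of these 99 changed direction in any edgeR or DESeq2 alternative, and 74 kept their call in every one. The 2 libraries per group are the main limit, and several calls above were lost when 1 was left out. Without the filter on low counts, 8 genes were called in whole nerve at day 7 against 5. Leaving out 1 library gave 2 to 3 called genes from day 3 to day 7 in Schwann cells and 1 to 3 in whole nerve, 4 to 6 in whole nerve at day 5 and 3 to 7 at day 7. Over all genes it gave 1533 to 2182 calls from day 3 to day 7 in Schwann cells and 1635 to 2516 in whole nerve, against 3140 and 3357 with all libraries, where fewer samples were compared. With all 16 libraries in 1 fit, whole nerve at day 7 had 2852 genes higher and 1842 lower, against 2442 and 2510. Upper quartile scaling moved the median difference between the tissues by 0.135 at day 5 and 0.101 at day 7. The DESeq2 median differed by 0.109 at day 3, but it was taken over all genes with any count, not the filtered genes. With median-of-ratios scaling on the filtered genes, the shift at day 3 was 0.046.

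Values not called that changed sign are given as log2 ranges over fits without 1 library. In Schwann cells Cd36 ran from -0.54 to 1.89 at day 3, -1.05 to 0.50 at day 5 and -1.57 to 0.20 at day 7, Tyro3 from -0.10 to 0.27 at day 5 and -0.067 to 0.31 at day 7, Megf10 from -0.60 to 0.26 at day 7, and Pros1 from -0.17 to 0.025 between days 3 and 7. In whole nerve Cd36 ran from -0.16 to 0.67 at day 3 and -0.75 to 0.078 at day 7, Megf10 from -0.20 to 0.30 at day 7, and Mfge8 from -0.10 to 0.26 between days 3 and 7. Between tissues Pros1 ran from -0.094 to 0.12 uncrushed, Tyro3 from -0.15 to 0.022 and Gulp1 from -0.057 to 0.064 at day 5, and Gulp1 from -0.060 to 0.052 at day 7. For the difference of injury effects Megf10 ran from -0.67 to 0.21 and -0.75 to 0.13 at days 3 and 7, Cd36 from -0.86 to 1.72 and -1.32 to 0.54, Mfge8 from -0.57 to 0.75 and -1.12 to 0.33 at days 3 and 5, and Axl from -0.18 to 0.056 at day 7. With upper quartile scaling Tyro3 was 0.076 at day 5 and Gulp1 0.10 at day 7 between tissues, and with only the groups compared Gulp1 was -0.0083 at day 5. Of 78 called values within or between tissues, 2 had the opposite sign in mean TPM and 0 in FPKM. The 2 were Mertk between the uncrushed tissues (0.14) and Mfge8 in whole nerve at day 5 (0.061). Differences of injury effects were not in this count. Among those called, the Axl differences at days 3 and 5 had the opposite sign in mean TPM. Called values also changed sign in the Cufflinks values, where Lrp1 in Schwann cells was 0.039 at day 3 and 0.10 at day 7 (0.37 at day 5, not called in the counts), and the cause was not tested. Of 24 Cufflinks values, 2 changed sign as called values, 16 moved by more than the replicate spread and 6 did not. Ranked by TPM, the order of the 8 groups was kept in full for Gas6 alone.

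Replicate numbers gave no sign of pairing. Deviations of same-numbered libraries correlated at -0.058 to 0.084 in 12 pairs of groups within a tissue and at -0.055 to 0.047 in 16 pairs between tissues. With 2 libraries per group, such values cannot show that the samples were unpaired. With the replicate block, 3939 genes were higher and 3718 lower in Schwann cells at day 3, against 4020 and 3840, and the call of Gas6 at day 5 was lost (-0.47, adjusted p = 0.0507). Under the block whole nerve gained calls for Megf10 and Cd36 at day 5 (adjusted p = 0.0495 and 0.0387), Mfge8 at day 7 (adjusted p = 0.0445) and Cd36 between days 3 and 7 (adjusted p = 0.0226).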
